A study of Mus musculus with 18 samples.

Results

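The miR-15 family (miR-15, miR-16, miR-195 and miR-497) and the miR-103 and miR-107 family were followed as 9 mature microRNAs (miRNAs) out of the 1412 in the count table of a small RNA sequencing study of mouse knee cartilage. The members were chosen by name: mmu-miR-15a-5p, mmu-miR-15b-5p, mmu-miR-15b-3p, mmu-miR-16-5p, mmu-miR-195a-5p, mmu-miR-195a-3p, mmu-miR-497a-5p, mmu-miR-103-3p and mmu-miR-107-3p. Each had a column in the table, and all 9 passed the filter on low counts that kept 428 miRNAs for testing.

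Femoral condyle cartilage came from C57bl6 mice, males of 12 weeks per the study's methods, without any transgene. In the injured mice a single mechanical load of 12 N ruptured the anterior cruciate ligament (ACL) of the right knee, and knees were collected at day 1 or day 7. The 18 libraries were day 1 injured right knees (n = 3), day 1 contralateral left knees (n = 3), day 7 injured right knees (n = 3), day 7 contralateral left knees (n = 3) and naive knees that received no load and are labelled day 7 (n = 6). Each library held cartilage pooled from several mice, and injured and contralateral knees came from the same mice, so the contralateral knee is a control within an injured animal. The 6 naive libraries came from 6 naive mice, with left and right knees pooled apart, so naive libraries share mice and n = 6 does not stand for 6 independent samples. Which libraries share mice is not given in the labels, and the tests treat libraries as independent. P-values therefore measure the spread between these libraries, which may be partly technical.

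MiRNAs are short RNAs that guide Argonaute proteins to messenger RNAs and lower their translation or stability. The bases near the 5′ end, called the seed, do most of the pairing with a target, so miRNAs with a common seed are expected to share many targets. The miR-15 family is best known for restraining the cell cycle through cyclins and for lowering the survival protein BCL2, and its Dleu2 locus is lost in many chronic lymphocytic leukaemias. MiR-103 and miR-107 lie in introns of pantothenate kinase genes, which make coenzyme A, and are known for targeting Dicer and for a role in insulin sensitivity.

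The sequences are shown because the grouping of the members rests on them. A RefSeq mature sequence (GRCm38.p6) was found for 9 of 9 members and is written 5′ to 3′ with the seed, bases 2 to 8, in capitals. The first 5 arms shared the seed AGCAGCA.
mmu-miR-15a-5p: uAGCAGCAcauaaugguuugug
mmu-miR-15b-5p: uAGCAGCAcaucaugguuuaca
mmu-miR-16-5p: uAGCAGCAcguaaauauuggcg
mmu-miR-195a-5p: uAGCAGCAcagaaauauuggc
mmu-miR-497a-5p: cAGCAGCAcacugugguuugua
MiR-103-3p and miR-107-3p shared the seed GCAGCAU, in which the same letters are shifted by 1 base.
mmu-miR-103-3p: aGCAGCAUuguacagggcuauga
mmu-miR-107-3p: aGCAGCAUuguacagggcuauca
The other 2 members are the opposite arms of their hairpins and had seeds of their own, GAAUCAU and CAAUAUU.
mmu-miR-15b-3p: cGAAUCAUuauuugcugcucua
mmu-miR-195a-3p: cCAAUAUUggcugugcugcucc

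MiR-103-3p and miR-107-3p differed at a single position, G22C, counted from 1 at the 5′ end with the base of miR-103-3p first. MiR-16-5p and miR-195a-5p differed at 2 of 21 compared positions, G10A and U11G with the base of miR-16-5p first. Both pairs are close enough that reads with an error or a missing end could be placed under the other name, and how the authors counted reads that match more than 1 mature sequence is not given in the sources used here. No member had the same count as another miRNA in every library. The hexamer AGCAGC began at base 1 or base 2 in 13 of the 1184 miRNAs of the table with a RefSeq sequence.

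The genes of the 9 members lie in 6 places (GRCm38.p6). Mir15b (chr3:69009772-69009835) and Mir16-2 (chr3:69009902-69009996) lie together on the plus strand in an intron of Smc4. Mir16-1 (chr14:61631880-61631972) overlaps an exon of the non-coding transcript Dleu2 on the minus strand, and the arms of Mir15a (chr14:61632038-61632096) lie in a Dleu2 intron. Mir497 (chr11:70234717-70234800) and Mir195a (chr11:70235042-70235135) lie together on the plus strand, with 392 bases from the first to the last mature base, and no other annotated gene overlapped them. Mir103-1 (chr11:35782396-35782481) lies in an intron of Pank3, Mir103-2 (chr2:131288052-131288137) in an intron of Pank2 and Mir107 (chr19:34820687-34820773) in an intron of Pank1. Mature miR-16-5p and miR-103-3p can each come from 2 hairpins, and their counts do not separate the copies.

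Total counts per library ran from 758388 to 4088852, and the members held between 0.363% and 0.823% of them. The cartilage label was checked against miR-140 and miR-455, miRNAs typical of chondrocytes: all 4 arms were detected in every library, with a summed abundance between 5029 and 10499 CPM, that is, reads scaled to a common library size. Markers of skeletal muscle (3 miRNAs), erythroid cells (4), leukocytes (4) and vessels (3) were also above 0 in every library, and the muscle sum alone was between 54642 and 273840 CPM. In bulk cartilage, fewer cells of a type and less RNA per cell cannot be told apart. Day 7 contralateral replicate 1 stood apart from the other libraries: it had the lowest chondrocyte sum, the highest leukocyte sum (11018 CPM) and the highest vascular sum (97540 CPM) of the 18 libraries, and its values are given apart below. The miRNAs within the leukocyte and chondrocyte sums went different ways in this library. It held 10184 CPM of miR-142a-3p and 374 CPM of miR-150-5p. Its miR-142a-5p (65.9 CPM) and miR-223-3p (394 CPM) were the lowest of the 18 libraries. MiR-140-5p was at 1912 CPM and miR-455-3p at 33.0 CPM, while miR-140-3p was at 2873 CPM and miR-455-5p at 212 CPM.

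MiR-103-3p and miR-16-5p were the most abundant members. Over the 18 libraries mmu-miR-103-3p averaged 2067 ± 388 CPM (SD, n = 18), rank 52 of the 428 tested miRNAs, and mmu-miR-16-5p averaged 2017 ± 739 CPM, rank 53. MiR-103-3p exceeded miR-16-5p in all 6 naive libraries, while miR-16-5p was the higher of the pair in 4 of 18 libraries. A middle group followed with mmu-miR-195a-5p at 518 ± 92.0 CPM, mmu-miR-15b-5p at 387 ± 118.5 CPM and mmu-miR-107-3p at 343 ± 78.1 CPM. Neighbours within it overlapped in level, since miR-15b-5p exceeded miR-195a-5p in 4 libraries and miR-107-3p in 12. Below them were mmu-miR-497a-5p at 167 ± 60.0 CPM, mmu-miR-15b-3p at 91.7 ± 16.1 CPM, mmu-miR-195a-3p at 84.4 ± 24.9 CPM and mmu-miR-15a-5p at 33.0 ± 10.2 CPM. The opposite arms miR-15b-3p and miR-195a-3p changed places between libraries, with miR-15b-3p the higher in 12 of 18. The members are 21 to 23 bases long, but ligation during library preparation favours some ends over others, so the order of levels is a description of read counts. MiR-15a-5p rested on 14 to 137 counts per library and was the least precise member.

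MiR-103-3p and miR-107-3p were lower in day 7 injured cartilage than in naive cartilage, and no other member passed the test in this comparison. The comparison asks which miRNAs differ a week after ACL rupture from those of knees that were never loaded. MiR-103-3p had 2741, 2042, 2101, 2501, 2287 and 2091 CPM in naive replicates 1 to 6 of mmu-miR-103-3p. In day 7 injured replicates 1 to 3, mmu-miR-103-3p had 1569, 1672 and 1439 CPM. The lowest naive library lay above the highest injured library, so the groups did not overlap. The share of all tested miRNAs without overlap in a comparison is not given here, so such a gap only describes the values. The log2 fold change was −0.55 (SE 0.18), a 1.47-fold lower level (limma-voom, adjusted p = 0.0372).

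MiR-107-3p followed the same course at a lower level. In naive replicates 1 to 6, mmu-miR-107-3p had 423, 304, 350, 435, 408 and 359 CPM. In day 7 injured replicates 1 to 3 it had 214, 264 and 217 CPM, again without overlap. The log2 fold change of mmu-miR-107-3p was −0.71 (SE 0.20), a 1.63-fold lower level (limma-voom, adjusted p = 0.0167). In this comparison 18.2% of the 428 tested miRNAs were called at an adjusted p under 0.05, and 3.74% were called lower, against 2 of the 9 members.

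Both calls depended on single libraries. When each of the 18 libraries was left out in turn, miR-107-3p stayed under the threshold in 16 of 18 fits (limma-voom adjusted p between 0.00768 and 0.129) and miR-103-3p in 5 of 18 (0.0221 to 0.251). No member was called without day 7 injured replicate 1 or without day 7 injured replicate 3. The fold changes themselves moved little, between −0.59 and −0.46 for miR-103-3p and between −0.79 and −0.59 for miR-107-3p.

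**Figure D1:**
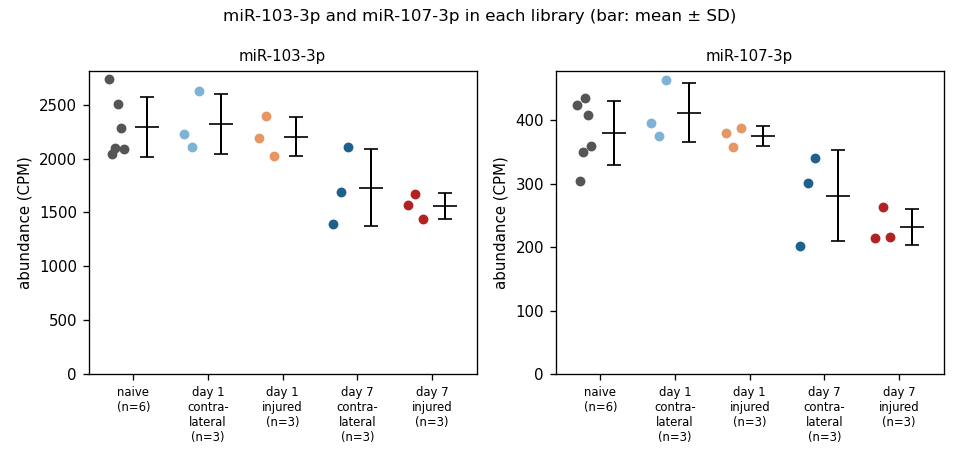
Abundance in CPM of miR-103-3p (left) and miR-107-3p (right) in each of the 18 libraries, with a point per library and a bar for mean ± SD of each of the 5 groups. The 3 day 7 injured libraries sit below all 6 naive libraries in both panels, and the 3 day 7 contralateral libraries run from below the injured range to within the naive range.

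Markers of other cell types were read in the same comparison. Called were 1 of 4 erythroid and 1 of 4 leukocyte miRNAs, and 0 of 3 muscle and 0 of 3 vascular miRNAs. Over all tested miRNAs the share called was 18.2%. The sum of miR-451a, miR-144 and miR-486a was between 5986 and 7928 CPM in naive libraries and between 3081 and 4150 CPM in day 7 injured libraries. Of these, miR-486a-5p was called lower (log2 fold change −1.22, limma-voom adjusted p = 0.000673), while miR-451a was at −0.25 (adjusted p = 0.723). MiR-144-5p was at −0.46 and miR-144-3p at −0.01. The leukocyte sum was between 2602 and 6494 CPM in naive and between 4192 and 4803 CPM in day 7 injured libraries, and of its 4 miRNAs miR-150-5p was called lower (−1.54, limma-voom adjusted p = 0.00317), while miR-223-3p was at −0.75 (adjusted p = 0.0744). MiR-142a-3p was at 0.18 and miR-142a-5p at −0.19. No muscle or vascular marker was called, with miR-133a-3p at −0.95 (limma-voom adjusted p = 0.141) and miR-145a-5p at −0.65 (adjusted p = 0.0975). The muscle miRNAs miR-1a-3p and miR-206-3p were at −0.39 and −0.53. The vascular miRNAs miR-126a-3p and miR-143-3p went the other way from miR-145a-5p, at 0.30 and 0.19. The muscle sum was between 67047 and 197947 CPM in naive and between 69325 and 133249 CPM in day 7 injured libraries, and the vascular sum between 48081 and 82620 CPM and between 73579 and 80468 CPM. The part of other cell types in the change of miR-103-3p and miR-107-3p was not tested. The chondrocyte sum was between 6172 and 10499 CPM in naive and between 6756 and 9983 CPM in day 7 injured libraries. Of its 4 miRNAs 0 were called. MiR-455-5p was at 0.60 (95% interval 0.05 to 1.15, limma-voom adjusted p = 0.138) and miR-140-5p at 0.29. MiR-455-3p was at 0.10 and miR-140-3p at −0.09.

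The 7 members of the miR-15 family were not called in day 7 injured against naive cartilage, and their directions were mixed. Mmu-miR-15b-5p, which pairs with miR-16 in the Smc4 intron, had a log2 fold change of −0.44 (95% interval −1.04 to 0.16). Mmu-miR-16-5p was at −0.23 (−0.79 to 0.34) and mmu-miR-15a-5p at −0.17 (−0.88 to 0.53). Mmu-miR-497a-5p was at 0.44 (−0.49 to 1.36), mmu-miR-195a-5p, from the same cluster, at 0.21 (−0.24 to 0.66) and mmu-miR-195a-3p at 0.18 (−0.49 to 0.86). Mmu-miR-15b-3p was at 0.00 (−0.45 to 0.45). The adjusted p of these 7 (limma-voom) was at least 0.374, and 6 of the 7 intervals hold changes as large as those of miR-103-3p. The median log2 fold change of the 9 members was −0.17, beside −0.00 over all tested miRNAs, and their median size without sign was 0.23 beside 0.42.

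MiR-16-5p illustrates the overlap. In naive replicates 1 to 6, mmu-miR-16-5p had 2432, 1980, 1685, 2205, 1750 and 1678 CPM. In day 7 injured replicates 1 to 3 it had 1823, 1783 and 1423 CPM. Only day 7 injured replicate 3 lay below the naive range. For mmu-miR-497a-5p the naive range was 131 to 213 CPM with a median of 151, and the day 7 injured libraries had 142, 215 and 303 CPM. The last 2 of these lay above the naive range and the first within it.

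**Figure D2:**
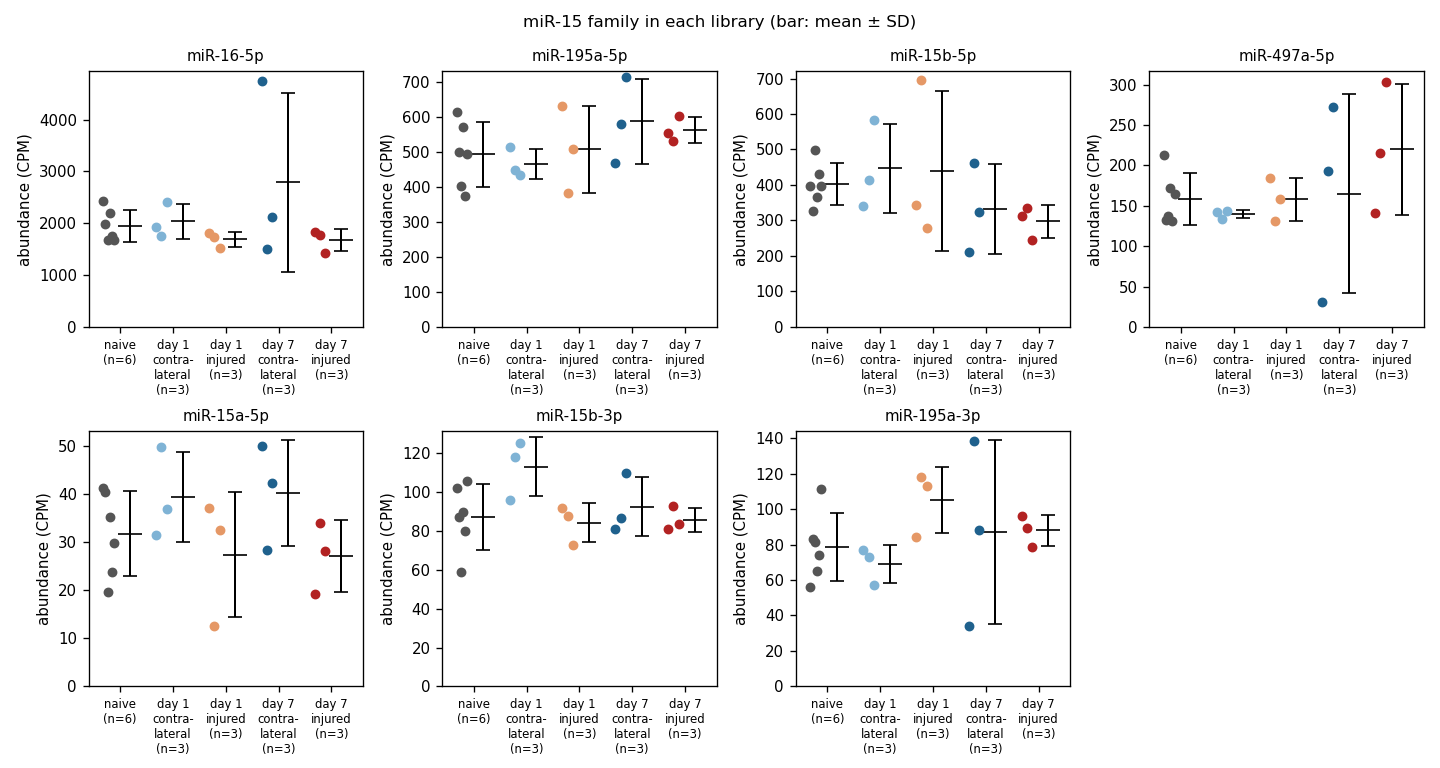
Abundance in CPM of the 7 members of the miR-15 family in each library, with a panel per miRNA, a point per library and a bar for mean ± SD of each of the 5 groups. The y axes differ between panels, and the wide bars of the day 7 contralateral group for miR-16-5p and miR-497a-5p come with 1 library at 4748 and 30.9 CPM.

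No member was called in day 7 injured against day 7 contralateral cartilage, where 14.7% of tested miRNAs were called. This comparison sets the injured knee against the other knee of the same mice. In day 7 contralateral replicates 1 to 3, mmu-miR-103-3p had 1392, 1692 and 2105 CPM, and mmu-miR-107-3p had 201, 301 and 340 CPM. The groups overlapped for both miRNAs only through contralateral replicate 1, which lay below every injured library. The other contralateral libraries lay above every injured library. The log2 fold change was −0.14 for miR-103-3p (95% interval −0.57 to 0.30) and −0.25 for miR-107-3p (−0.74 to 0.24). Without contralateral replicate 1 these values were −0.21 and −0.41, and neither was called (limma-voom adjusted p = 0.636 and 0.312). The lowest adjusted p of a member was 0.310 (limma-voom), for miR-16-5p, and 0 members had an unadjusted p under 0.05 or were called by edgeR or DESeq2.

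Day 7 contralateral replicate 1 set the values of miR-16-5p and miR-497a-5p in this comparison. In day 7 contralateral replicates 1 to 3, mmu-miR-16-5p had 4748, 1502 and 2113 CPM, and mmu-miR-497a-5p had 30.9, 193 and 272 CPM. The first library held the highest miR-16-5p and the lowest miR-497a-5p of all 18 libraries. It also had the lowest miR-195a-3p, at 34.3 CPM, and the lowest miR-15b-5p, at 210 CPM. The log2 fold change of day 7 injured against contralateral cartilage was −0.54 for miR-16-5p and −0.03 without that library. For miR-497a-5p it was 0.82 (95% interval −0.24 to 1.89) and −0.05 without it. The other 5 members were between −0.48 and 0.20.

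The uninjured knees at day 7 were also set against naive knees, to ask whether the control knees of injured mice differed from those of untouched mice. No member was called, and 0.0% of the tested miRNAs were. MiR-103-3p had a log2 fold change of −0.41 (95% interval −0.78 to −0.04) and miR-107-3p of −0.46 (−0.88 to −0.03), with an adjusted p of 0.675 for both (limma-voom). They were the only members with an unadjusted p under 0.05 in this comparison. Without day 7 contralateral replicate 1 the values were −0.31 and −0.27. Mmu-miR-16-5p was at 0.32 and mmu-miR-497a-5p at −0.39, and both changed sign without that library, to −0.16 and 0.52. Since the naive libraries enter both comparisons, the likeness of the injured and contralateral values of miR-103-3p and miR-107-3p is not independent. The difference between injured and contralateral knees is the test given above, and it was not passed.

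**Figure D3:**
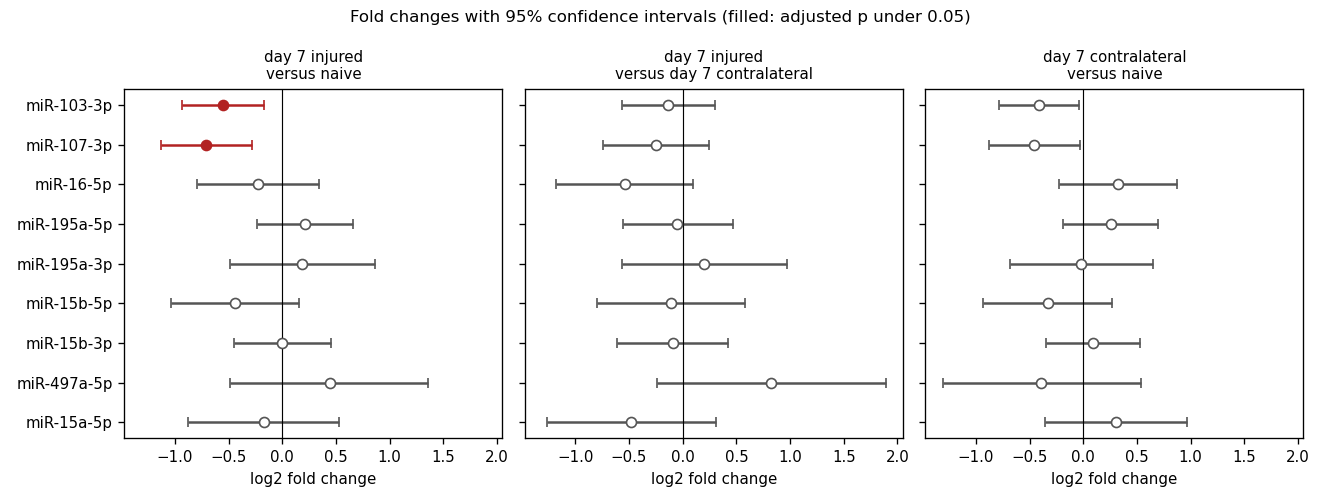
Log2 fold changes of the 9 members with their 95% confidence intervals from the limma-voom fit, for day 7 injured versus naive, day 7 injured versus day 7 contralateral and day 7 contralateral versus naive cartilage. Filled points are called, which holds for miR-103-3p at −0.55 and miR-107-3p at −0.71 in the first panel.

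At day 1 no member was called, by limma-voom, edgeR or DESeq2. In day 1 injured against naive cartilage, 0.0% of the tested miRNAs were called, and the members lay between −0.27 and 0.43 on the log2 scale. In day 1 injured replicates 1 to 3, mmu-miR-103-3p had 2189, 2392 and 2027 CPM, all but the last within the naive range. Mmu-miR-107-3p had 380, 358 and 388 CPM, all within the naive range. The log2 fold change was −0.06 for miR-103-3p (95% interval −0.43 to 0.32) and −0.01 for miR-107-3p (−0.43 to 0.42). Against the day 1 contralateral libraries, which had 2227, 2105 and 2629 CPM of mmu-miR-103-3p and 396, 375 and 464 CPM of mmu-miR-107-3p, they were −0.07 and −0.13. No member was called there either (0.0% of all), nor in day 1 contralateral against naive cartilage (0.0% of all), where the members lay between −0.16 and 0.39. No member had an unadjusted p under 0.05 in these 3 comparisons (limma-voom).

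Day 1 injured replicate 2 differed from the other libraries of its group in the miR-15 members. It held 696 CPM of mmu-miR-15b-5p, the highest of the 18 libraries, beside 343 and 279 CPM in the other two, and 12.6 CPM of mmu-miR-15a-5p, the lowest of all, beside 37.1 and 32.6 CPM. Its mmu-miR-195a-5p was 384 CPM, beside 632 and 508 CPM. The cause was not tested.

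From day 1 to day 7 in injured knees, miR-107-3p was called lower. The 3 libraries at day 7, with 214, 264 and 217 CPM of mmu-miR-107-3p, lay below those at day 1 with 380, 358 and 388 CPM. The log2 fold change was −0.70 (SE 0.23; limma-voom adjusted p = 0.0491). MiR-103-3p was at −0.50 (SE 0.21), with an adjusted p of 0.120 (limma-voom), and was not called. Its groups did not overlap either, but the smallest exact permutation p that 3 against 3 libraries allow is 0.1. The share of all tested miRNAs without overlap is not given for this comparison either, so both gaps only describe the values. Of the tested miRNAs 15.7% were called and 3.50% were called lower, beside 1 of the 9 members. The call of miR-107-3p was lost whichever single library of the 18 was left out (adjusted p between 0.0518 and 0.319) and under 6 of 9 other settings, with a log2 fold change between −0.73 and −0.59 under all 9. The other 7 members lay between −0.46 and 0.43. Of the cell type markers, 1 of 4 erythroid, 1 of 4 leukocyte and 1 of 4 chondrocyte miRNAs were called. No muscle or vascular marker was. MiR-486a-5p was lower (−1.43, limma-voom adjusted p = 0.000652), as was miR-150-5p (−1.53, adjusted p = 0.0123). MiR-455-5p was higher (1.01, limma-voom adjusted p = 0.0277). MiR-144-3p (0.19), miR-142a-3p (0.68), miR-142a-5p (0.03) and miR-455-3p (−0.27) went against the called one of their list. The part of other cell types was not tested.

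In contralateral knees from day 1 to day 7, miR-107-3p was at −0.58 (unadjusted p = 0.0227) and miR-103-3p at −0.43 (unadjusted p = 0.0498), both with an adjusted p of 0.701 (limma-voom, 0.0% of the tested miRNAs called). The change of the injured-minus-contralateral difference from day 1 to day 7 was −0.07 for miR-103-3p (95% interval −0.68 to 0.54) and −0.12 for miR-107-3p (−0.82 to 0.57). No member was called in it, while 6.78% of the tested miRNAs were. An unadjusted p under 0.05 (limma-voom) was found for 0 of the 9 members and 70 of the 428 tested miRNAs.

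Sums were taken over the members with a common seed. The 5 member arms with the seed AGCAGCA summed to 3041 ± 402 CPM in naive libraries (SD, n = 6) and 2783 ± 158 CPM in day 7 injured libraries (SD, n = 3). The sum was between 2765 and 5509 CPM in day 7 contralateral libraries. MiR-16-5p made up 64.1% ± 2.46 of this sum in naive libraries, 60.1% ± 4.81 in day 7 injured libraries and 86.2% in day 7 contralateral replicate 1. MiR-497a-5p made up 5.19% ± 0.576 in naive and 8.01% ± 3.37 in day 7 injured libraries. The sum of miR-103-3p and miR-107-3p was 2674 ± 322 CPM in naive libraries, 2578 ± 168 CPM in day 1 injured libraries, 2010 ± 426 CPM in day 7 contralateral libraries and 1792 ± 140 CPM in day 7 injured libraries.

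**Figure D4:**
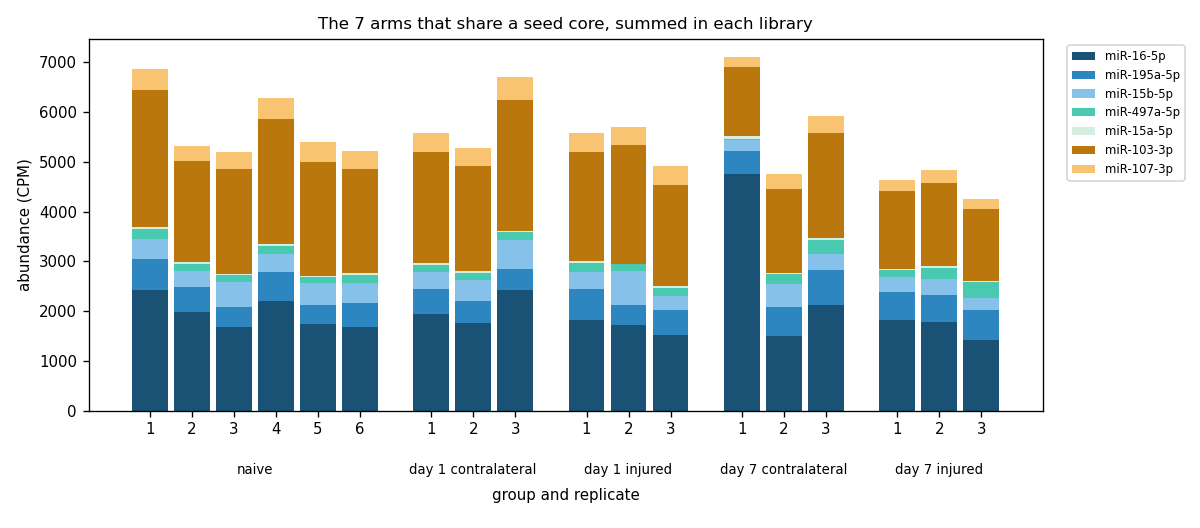
Summed abundance in CPM of the 5 member arms with the seed AGCAGCA (blue and green) and of miR-103-3p and miR-107-3p (orange) in each library, stacked by miRNA and grouped by the 5 groups with the replicate number below each bar. The orange part is between 1656 and 1936 CPM in day 7 injured libraries and between 2345 and 3164 CPM in naive libraries, and day 7 contralateral replicate 1 has a miR-16-5p segment of 4748 CPM.

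The ratio of these sums does not depend on how library sizes are scaled. It was between 1.01 and 1.27 in naive libraries, between 1.13 and 1.17 in day 1 contralateral libraries and between 1.04 and 1.17 in day 1 injured libraries. In day 7 injured libraries it was between 1.50 and 1.60, and in day 7 contralateral libraries between 1.39 and 3.46, the highest being replicate 1. The libraries of both knees at day 7 after injury thus lay above every naive and day 1 library. This ratio was chosen after its values had been seen and was not tested.

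**Figure D5:**
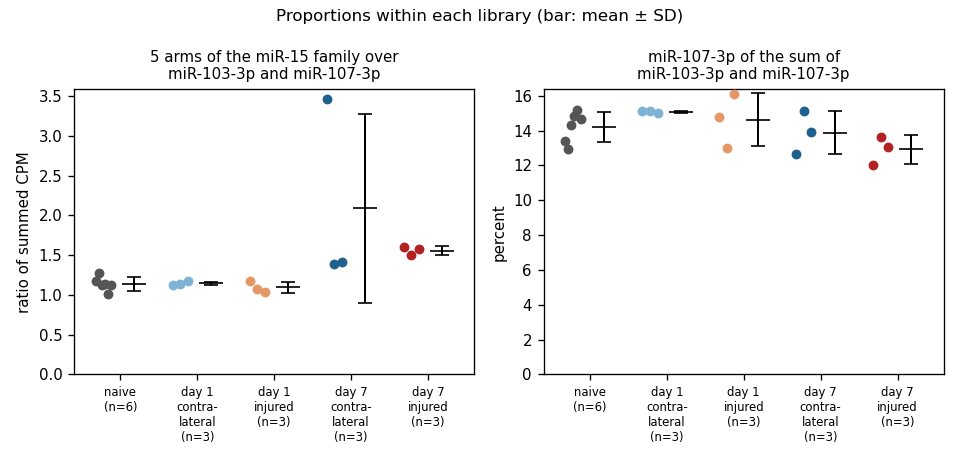
Left, ratio of the summed CPM of the 5 member arms with the seed AGCAGCA to that of miR-103-3p and miR-107-3p in each library; right, percent of miR-107-3p in the sum of miR-103-3p and miR-107-3p. Points are libraries and bars are mean ± SD, and the day 7 injured libraries lie between 1.50 and 1.60 on the left and between 12.0% and 13.6% on the right.

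None of the 5 ratios between single members passed the test. MiR-107-3p made up 14.2% ± 0.868 of its sum with miR-103-3p in naive libraries (SD, n = 6) and 12.9% ± 0.820 in day 7 injured libraries (SD, n = 3). The difference in the log2 ratio of miR-107-3p to miR-103-3p was −0.16 (exact two-sided permutation test, p = 0.0952, adjusted p = 0.536 over 10 tests). The ratio of the arms of the Mir15b hairpin, miR-15b-3p to miR-15b-5p, differed by 0.44 on the log2 scale (exact p = 0.107, adjusted p = 0.536). The arms of Mir195a, miR-195a-3p to miR-195a-5p, differed by −0.02 (exact p = 0.964, adjusted p = 1). The clustered miR-497a-5p to miR-195a-5p differed by 0.22 (exact p = 0.333), and miR-16-5p to miR-15b-5p by 0.22 (exact p = 0.405), both with an adjusted p of 0.675. The smallest p that 6 against 3 libraries allow is 0.0119. Against day 7 contralateral libraries, 3 against 3, it is 0.1, and the exact p of the 5 ratios was at least 0.4.

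Relatives outside the 9 members were taken from a list of 13 names: the other arms of the members' hairpins and further miRNAs with AGCAGC at base 1 or 2. Of these, 11 were in the table and 6 passed the filter, and 0 of the 6 were called in any of the 9 comparisons by limma-voom, edgeR or DESeq2. Of the 54 values, 3 had an unadjusted p under 0.05 by limma-voom. Mmu-miR-322-5p and mmu-miR-503-5p, X-linked neighbours known from growing and differentiating cells, are shown because both hold the hexamer. MiR-322-5p has the whole seed AGCAGCA and was not part of the sums above, like the rarer miR-195b.
mmu-miR-322-5p: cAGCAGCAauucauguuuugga
mmu-miR-503-5p: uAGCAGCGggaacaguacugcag
In naive libraries mmu-miR-322-5p had 59.2 ± 21.1 CPM (SD, n = 6) and in day 7 injured libraries 76.6 ± 21.2 CPM (SD, n = 3), a log2 fold change of 0.43 (limma-voom adjusted p = 0.556). Mmu-miR-503-5p had 65.2 ± 14.2 and 61.6 ± 18.6 CPM, a log2 fold change of −0.06 (adjusted p = 0.903). The opposite arm mmu-miR-16-1-3p, which is made only from Mir16-1, had 20.2 ± 7.46 and 23.6 ± 8.52 CPM (0.32, adjusted p = 0.582). In day 7 contralateral replicate 1, mmu-miR-322-5p was at 13.1 CPM and mmu-miR-503-5p at 26.1 CPM, while mmu-miR-16-1-3p was at 50.8 CPM, beside 24.5 and 28.7 CPM in the other two libraries of the group.

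The members did not move as one block between libraries of the same group. Across the 18 libraries, deviations of log2 CPM from the group means had a Pearson r of 0.84 between miR-103-3p and miR-107-3p (0.79 over the 17 libraries without day 7 contralateral replicate 1), and of 0.62 between the clustered miR-195a-5p and miR-497a-5p (0.60). MiR-15a-5p and miR-15b-5p, from different clusters, had an r of −0.70 (−0.69). MiR-16-5p and miR-195a-3p had an r of −0.90 (−0.81), and miR-16-5p and miR-195a-5p, which are nearly identical in sequence, −0.10 (0.19). MiR-103-3p and miR-107-3p are also nearly identical in sequence, so reads of one may be counted under the other. Whether this adds to their r was not tested. All values share the same libraries and scaling, and they are given as a description.

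Among the 173 other tested miRNAs whose mean reached 100 CPM, those most like miR-103-3p in these deviations were miR-93-5p (Pearson r 0.86 over 18 libraries), miR-107-3p (0.84), miR-23b-3p (0.73), miR-100-5p (0.71) and miR-17-5p (0.69). Without day 7 contralateral replicate 1 these 5 values were between 0.59 and 0.81. For miR-16-5p they were miR-374b-5p (0.90), miR-365-3p (0.79), miR-133b-3p (0.76), let-7j (0.76) and miR-145a-5p (0.75), between 0.53 and 0.83 without that library. MiR-16-5p is abundant in red blood cells, so the members were also compared with miR-451a, a miRNA made almost only in erythroid cells. None of the 9 correlations passed adjustment. The largest was that of miR-15a-5p (Pearson r 0.62, permutation p = 0.0166, adjusted p = 0.149; Spearman rho 0.57, p = 0.0322, adjusted p = 0.290), and r was 0.53 without the 2 libraries farthest from the median of miR-451a. MiR-16-5p had an r of 0.37 (permutation p = 0.327, adjusted p = 0.490; Spearman rho 0.30, p = 0.335, adjusted p = 0.602) and 0.09 without those 2 libraries, of which one was day 7 contralateral replicate 1.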

How the data were processed

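The authors prepared small RNA libraries with the NEBNext kit, trimmed adapters with Trim Galore 0.6.6, aligned the reads to mature miRBase sequences with Bowtie 1.3.0 and counted them with SAMtools 1.12 in the nf-core small RNA-Seq pipeline 1.1.0, set to GRCm38. They deposited raw counts per library and mature miRNA. The library number joined rows and samples, although the prefixes before it differ. The design text gives 4 mice per pool, whereas the methods list 6 mice at day 1, 12 at day 7 and 6 naive mice, which implies smaller pools at day 1 and in naive mice.

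The 9 members, the lists and the tests were chosen with earlier results of these data known. The miRNAs named were all members, a list of relatives, the 5 most alike miRNAs and miRNAs from the marker lists of cell types. MiRNAs were kept with filterByExpr (edgeR 4.0.16, minimum count 10, minimum total 15), scaled with TMM and fitted with limma 3.58.1 (voom, lmFit, eBayes; R 4.3.3) with 1 mean per group over 18 libraries. Each of 9 contrasts was adjusted by the Benjamini-Hochberg method over 428 miRNAs. A call is an adjusted p under 0.05. The same spread was thus assumed in all groups. CPM, counts scaled to a common library size, uses the TMM library sizes, and log2 CPM a prior count of 2. Ratios used counts with 0.5 added and exact permutation tests (scipy 1.17.1). Correlations with miR-451a used 100000 permutations within groups, two-sided, adjusted over the 9 members. Alternatives were other scalings, filters and tests, and leaving out each library. Counting error is set by 758388 to 4088852 counts per library, and PCR copies are not independent molecules.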

Additional observations from a re-analysis of the deposited data

How the results depend on the processing

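No paired analysis was possible because replicate numbers were given in accession order and no label ties a library to its pool of mice. In day 7 injured versus naive cartilage, 2 members were called. With library totals only and with at least 10 counts in every library 1 was, and with every miRNA kept 0 were. Leaving out 1 library gave 0 to 2. In day 7 versus day 1 injured knees, 1 member was called. It was 0 with DESeq2 size factors, library totals, muscle and erythroid miRNAs removed, every miRNA kept, 10 counts in every library or only the groups compared, 2 with quality weights, and 0 without any 1 library. In the other 7 comparisons 0 were called under every alternative. The causes were not tested, and a fit without a library also has a smaller sample. MiR-103-3p and miR-107-3p were lower than naive in day 7 injured knees under all 9 settings. They were also lower than naive in day 7 contralateral knees under all 9, without a call. There miR-103-3p was between −0.53 and −0.31 and miR-107-3p between −0.57 and −0.29.

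Values that were not called changed sign. In day 7 injured versus naive cartilage, miR-15b-3p (0.00) was −0.00 with DESeq2 size factors, −0.14 with library totals, −0.04 with every miRNA kept, −0.02 with edgeR or DESeq2 and −0.05 with quality weights, and −0.07 to 0.10 leaving out 1 library. MiR-15a-5p was −0.31 to 0.06. In day 7 contralateral versus naive cartilage, miR-16-5p was −0.07 with quality weights (−0.16 to 0.68 leaving out 1 library), and miR-497a-5p was 0.07 with edgeR, 0.04 with DESeq2 and 0.34 with quality weights (−0.94 to 0.52). For miR-497a-5p, day 7 injured versus contralateral knees gave −0.05 to 1.38. MiR-103-3p gave −0.17 to 0.00 in day 1 injured versus contralateral knees. The change of the injury difference between days was 0.04 for miR-103-3p with library totals (−0.11 to 0.08) and −0.25 to 0.03 for miR-107-3p. Log2 ratios gave −0.31 to 0.21 (miR-15b arms), −0.14 to 0.71 (miR-195a arms) and −1.10 to 0.30 (miR-16-5p to miR-15b-5p) against contralateral knees, and −0.18 to 0.11 (miR-195a arms) against naive. With library totals, r with miR-451a was −0.08 for miR-15b-3p and −0.54 for miR-195a-5p. Library totals moved the median of all miRNAs by −0.12 in day 7 injured versus naive cartilage.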
